A study of Mus musculus with 10 samples.

Results

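The transcripts of 49 centrosome and centriole genes were followed in cultures of NSC/NPCs, neural stem cells and progenitors taken from the SEZ (subependymal zone) of adult mice. The genes were chosen by name: every gene whose symbol is Cep followed by a number (32 genes), and 17 further genes of the centrosome and the spindle pole. They are 49 of the 48795 genes listed in the RNA-seq table. A gene was tested when it had at least 10 counts in at least 2 libraries, which left 16797 genes and kept each of the 49. Of these, 46 had at least 100 counts in every library, and the lowest count was 44.

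The centrosome is the main microtubule-organising centre of an animal cell, and holds a pair of centrioles surrounded by a pericentriolar matrix. In each cell cycle a new centriole is built beside each old one, under the kinase Plk4 and its partners Stil and Sass6, and the duplicated centrosomes then form the poles of the mitotic spindle. When a cell leaves the cycle, the older centriole, which carries appendages, can serve as the base of a primary cilium. Neural progenitors are sensitive to this machinery, since mutations in Aspm, Cdk5rap2, Cenpj, Stil, Cep135 and Cep152 are known causes of primary microcephaly.

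RNA-seq had been carried out on 10 libraries of SEZ cultures from mice aged 10 weeks. Proliferating neurospheres (PRO) were floating spheres grown for 3 days in vitro (DIV) with 20 ng/ml EGF and 10 ng/ml FGF. Differentiating cells (DIFF, 2 + 1 DIV) were seeded on Matrigel for 2 days with FGF and then kept for 24 h without mitogens in 2% serum, so that attachment, serum and mitogen withdrawal changed together. Each stage had 3 wild-type (WT) libraries and 2 libraries labelled p27KO, from mice with a constitutive Cdkn1b mutation kept on a C57BL/6 J background; Cdkn1b encodes the cyclin-dependent kinase inhibitor p27. No label says which libraries came from separate animals or cultures, so that the p-values measure the spread between these libraries, which may be technical.

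The libraries held 19190068 to 25291674 counts. The Cdkn1b count itself was not lost: it stood at 103 to 112 CPM (the count scaled to the library total) in WT neurospheres and 205 to 209 CPM in WT cells at 2 + 1 DIV, against 90.7 to 114 CPM and 137 to 140 CPM in the libraries labelled p27KO, whose free-text description names WT cells while title and genotype field give p27KO. A gene-level count does not show which exons were read. Xist stood at 1.16 to 2.57 CPM in the WT libraries and 2260 to 3590 CPM in those labelled p27KO, so that genotype and sex cannot be told apart. The 4 stem and progenitor markers (Nes, Sox2, Egfr, Olig2) summed to 2880 to 3770 CPM in neurospheres and 1410 to 1540 CPM at 2 + 1 DIV, and the 5 microglial markers to at most 0.622 CPM in any library. Within that stem and progenitor sum Nes and Olig2 were lower at 2 + 1 DIV, Egfr overlapped between the stages, and Sox2 was higher, at 163 to 226 CPM in neurospheres and 334 to 375 CPM at 2 + 1 DIV. Of 8 markers of multiciliated ependyma, which also builds many centrioles, Foxj1 stood at 13.7 to 19.8 CPM in neurospheres of either genotype and 84.4 to 102 CPM at 2 + 1 DIV, and Rsph1 at 0.156 to 0.738 CPM and 1.53 to 1.74 CPM. Ccno and Ccdc153 did not exceed 0.436 CPM in any library, and Gmnc, Mcidas, Deup1 and Tmem212 did not exceed 0.0826 CPM. In bulk RNA, fewer cells of a type and less RNA per cell cannot be told apart.

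Most of the 49 transcripts were lower at 2 + 1 DIV than in neurospheres of WT cells, and 6 of them fell far more than the rest. Of the 49, 30 fell and 7 rose from neurospheres to 2 + 1 DIV in WT (edgeR's quasi-likelihood test, Benjamini-Hochberg adjusted p under 0.05 over all genes tested), where 31.2% of all genes tested fell and 30.8% rose. The median log2 fold change was -0.53 over the 49 genes and 0.03 over all genes tested. In the libraries labelled p27KO, 24 fell and 6 rose, against 27.3% and 24.3% of all genes tested, with medians of -0.26 and -0.01. The same 24 genes fell in both genotypes, and Tacc1, Cep162, Cep350, Cep19 and Pcm1 rose in both. The summed counts of the 49 genes took 0.348 to 0.374% of a WT neurosphere library and 0.26 to 0.271% at 2 + 1 DIV, and in the libraries labelled p27KO 0.368 to 0.374% and 0.324% in either library. The number that rose depended on the setting: it was 11 in WT and 12 in p27KO under the study's stricter filter on low counts, and 10 in p27KO with the size factors of DESeq2. Of the 12859 genes kept by that filter, 4307 rose in WT and 3541 in p27KO. With those size factors 4261 of 16797 rose in p27KO.

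**Figure D1:**
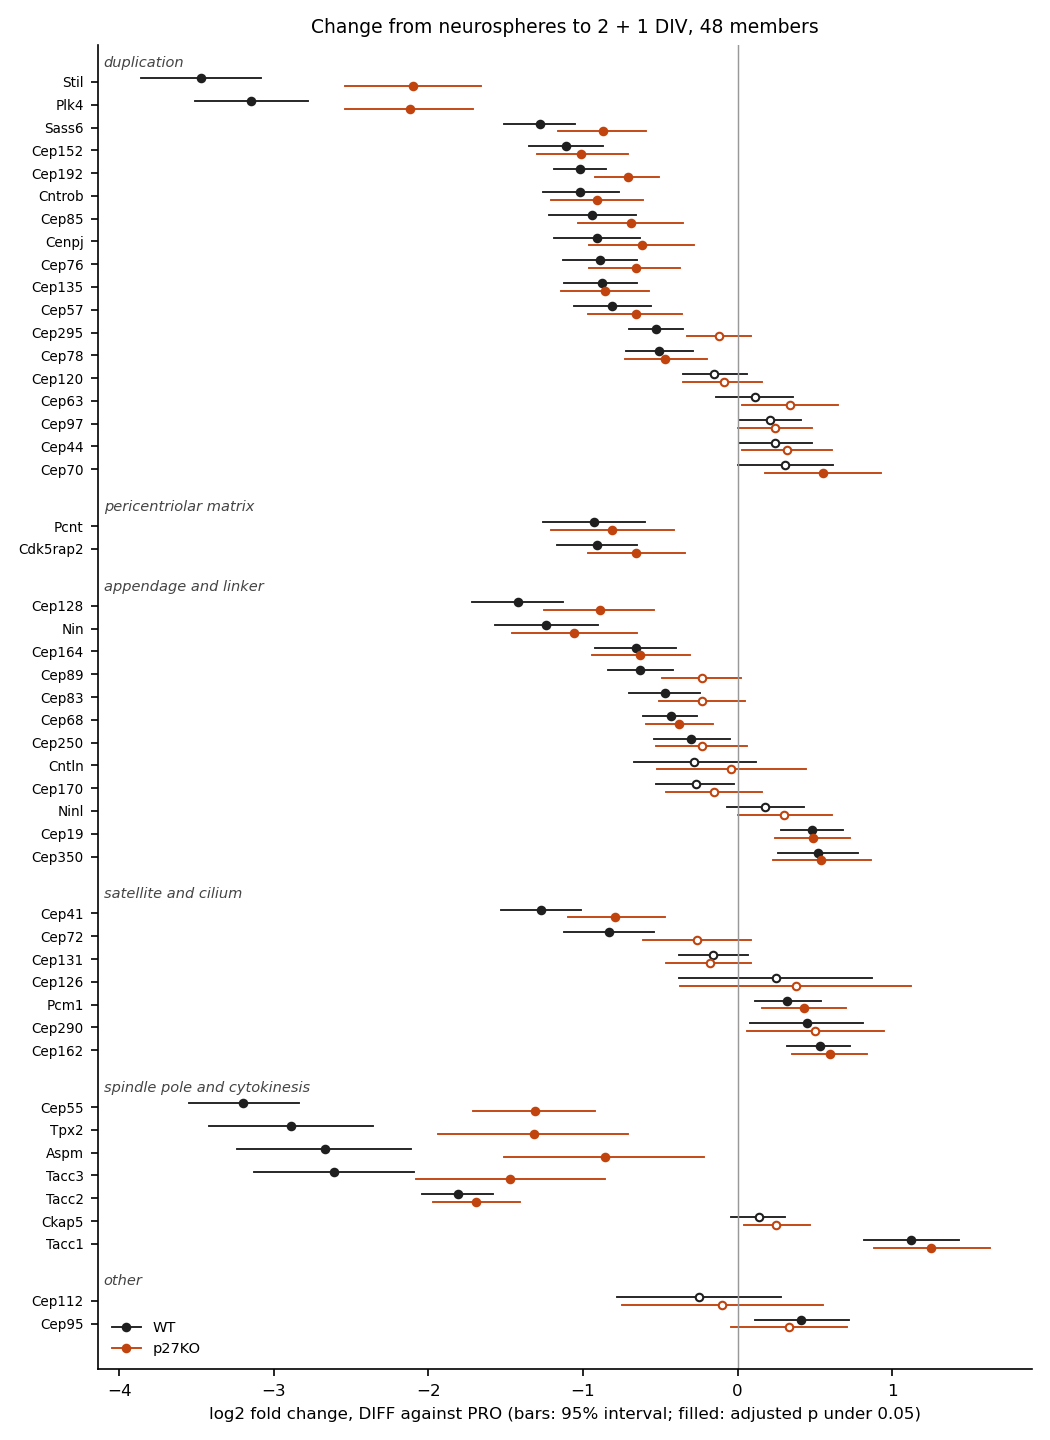
Log2 fold change from neurospheres to 2 + 1 DIV of 48 of the 49 genes (x axis) by role group, in WT (black, 3 libraries per stage) and p27KO (orange, 2 per stage), with 95% intervals as bars and filled points where the adjusted p was under 0.05. Stil, Plk4, Cep55, Tpx2, Aspm and Tacc3 lie below -2 in WT, and Tacc1 lies above 1 in both genotypes.

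The 6 genes that fell by at least 2 on the log2 scale in WT were a kinase and a scaffold of centriole duplication (Plk4 and Stil), a protein of the cytokinetic bridge (Cep55) and 3 spindle pole proteins (Aspm, Tpx2 and Tacc3). Stil, at chr4:115000159-115043196 on the plus strand (GRCm38), had 57.3, 59.7 and 57.5 CPM in the WT neurospheres and 7.74, 4.23 and 5.1 CPM in the WT libraries at 2 + 1 DIV. In the libraries labelled p27KO it had 62 and 59.7 CPM, and then 15.1 and 15.3 CPM. The stages were thus far apart in both genotypes. The 2 p27KO libraries lay above all 3 WT libraries at 2 + 1 DIV, and in neurospheres by a margin within the rounding of the values. The fitted change of Stil was -3.47 ± 0.18 (log2, SE) in WT, an 11.1-fold fall, and -2.10 ± 0.20 in p27KO (adjusted p = 1.5e-07 and 2e-05, edgeR's quasi-likelihood test).

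Plk4, at chr3:40800019-40816883 on the plus strand, had 59.1, 54.8 and 68.8 CPM in WT neurospheres and 7.79, 5.84 and 8.58 CPM at 2 + 1 DIV. The libraries labelled p27KO had 68.6 and 53.1 CPM in neurospheres, and 15.9 and 14 CPM at 2 + 1 DIV. The neurospheres of the 2 genotypes overlapped, and the libraries at 2 + 1 DIV did not. Its log2 change was -3.15 ± 0.16 in WT, an 8.85-fold fall, and -2.12 ± 0.19 in p27KO.

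Cep55, at chr19:38055011-38074423 on the plus strand, works at the midbody, the bridge that is cut at the end of cell division. It had 26.9, 26.8 and 27.4 CPM in WT neurospheres, and 3.66, 2.32 and 3.56 CPM at 2 + 1 DIV. The values labelled p27KO were 28.5 and 27.1 CPM, and then 12.9 and 11.1 CPM. The level that remained at 2 + 1 DIV was 11.8% of the neurosphere mean in WT and 43.1% in p27KO. The log2 changes were -3.20 ± 0.16 and -1.31 ± 0.18.

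Aspm, at chr1:139454772-139494091 on the plus strand, focuses microtubules at the spindle pole. It had 219, 187 and 235 CPM in WT neurospheres and 43.9, 20.9 and 43.8 CPM at 2 + 1 DIV. Those labelled p27KO had 245 and 249 CPM, and then 159 and 132 CPM, above WT at each stage. Of the 6 genes it kept the most in p27KO, 59% of its neurosphere mean, against 16.9% in WT. Its log2 change in WT was -2.67. Its change of -0.86 ± 0.29 in p27KO passed the test (adjusted p = 0.0308, edgeR's quasi-likelihood test), and no longer did without any of the 4 p27KO libraries, where the adjusted p was 0.0848 and 0.0962 without neurosphere libraries 1 and 2, and 0.064 and 0.151 without libraries 1 and 2 of 2 + 1 DIV. Without a filter on low counts the call was lost as well (adjusted p = 0.116).

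Tpx2, at chr2:152847964-152895321 on the plus strand, activates the kinase Aurora A on spindle microtubules. It had 258, 234 and 242 CPM in WT neurospheres and 48.4, 21.4 and 37 CPM at 2 + 1 DIV. In the libraries labelled p27KO it had 246 and 242 CPM, and then 110 and 99.2 CPM. The neurosphere levels of the genotypes overlapped, and those at 2 + 1 DIV did not. Its log2 changes were -2.89 ± 0.24 in WT and -1.32 ± 0.27 in p27KO.

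Tacc3, at chr5:33658128-33678995 on the plus strand, binds clathrin and Ckap5 on spindle fibres, and shares annotated exon sequence with Tmem129. It had 114 CPM in each WT neurosphere library, and 29, 12.7 and 19.1 CPM at 2 + 1 DIV. The p27KO-labelled values were 108 and 110 CPM, below WT, and then 44.2 and 40.4 CPM, above WT. The 3 WT libraries at 2 + 1 DIV were themselves spread over more than a factor of 2. Its log2 changes were -2.61 ± 0.23 in WT and -1.47 ± 0.27 in p27KO.

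**Figure D2:**
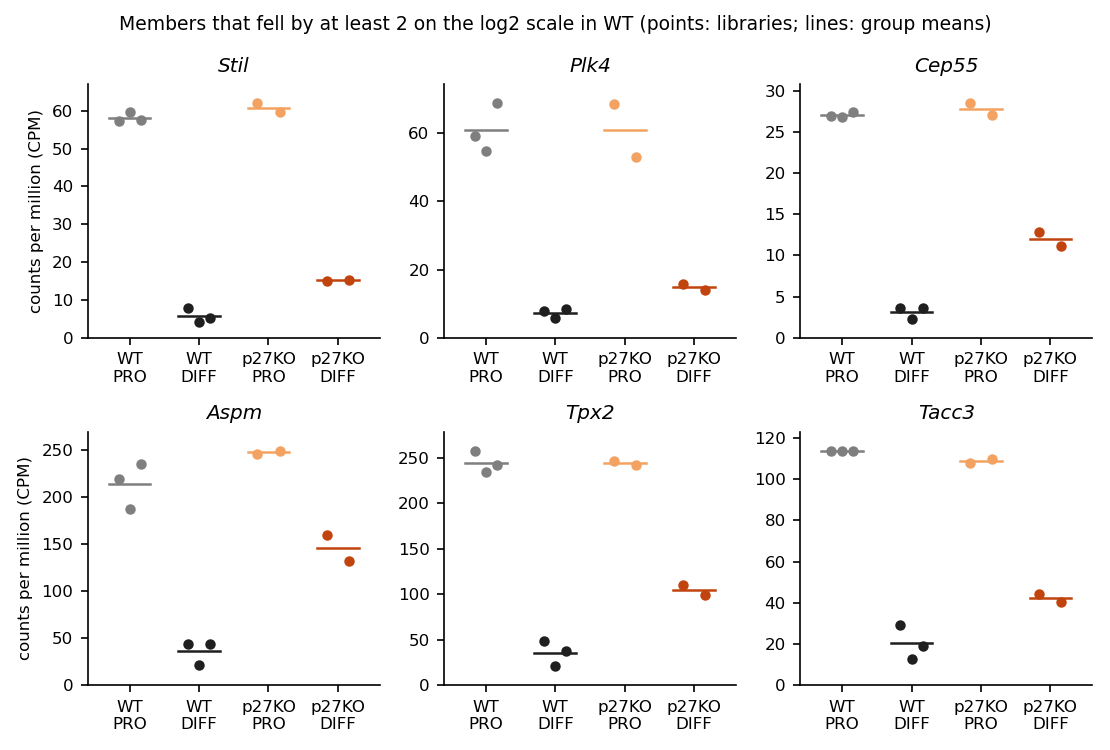
CPM (y axis, from 0) of the 6 genes that fell by at least 2 on the log2 scale in WT, with a point per library and a line at the group mean. For each gene the neurosphere groups lie close together, with p27KO above WT for Aspm and below it for Tacc3. Both p27KO libraries at 2 + 1 DIV lie above the 3 WT libraries for each gene.

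Among the 3 WT libraries at 2 + 1 DIV, library 2 was the lowest for all 6 genes. Of all 49 genes it was the lowest for 11, library 1 for 28 and library 3 for 10. The 5 markers of cycling cells (Mki67, Top2a, Cdk1, Ccnb1, Pcna) summed to 174 CPM in library 2, against 295 CPM in library 1 and 274 CPM in library 3. Over the groups that sum was 2160 to 2360 CPM in WT neurospheres and 174 to 295 CPM at 2 + 1 DIV, and 2270 to 2540 CPM and 687 to 794 CPM in the libraries labelled p27KO. The cycling markers moved with the 6 genes over stage and genotype, and their part in the changes was not tested.

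The proximal promoters of these genes are shown, since the genes moved together and the short motifs of cell cycle promoters can be read in them. RefSeq start-site windows of GRCm38.p6 were matched for 40 of the 49 genes, 5 of the 6 among them, with no window for Tpx2. Each line gives 150 bases before the start site and 20 after it, 5′ to 3′ on the gene's strand. Capitals mark short motifs, searched on both strands. The cell cycle homology region (CHR) was searched as TTTGAA and also in the form TTCGAA. The CCAAT box was searched by the letters of its name, and an E2F-type site was searched as TTCCCGC and also in the form TTGGCGC. Cep55 has 2 start sites.
Aspm, chr1:139454623-139454792, plus: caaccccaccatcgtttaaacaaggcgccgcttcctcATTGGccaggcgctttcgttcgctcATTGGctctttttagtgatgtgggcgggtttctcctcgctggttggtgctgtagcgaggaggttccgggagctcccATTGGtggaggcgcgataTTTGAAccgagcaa
Cep55, chr19:38054834-38055003, plus: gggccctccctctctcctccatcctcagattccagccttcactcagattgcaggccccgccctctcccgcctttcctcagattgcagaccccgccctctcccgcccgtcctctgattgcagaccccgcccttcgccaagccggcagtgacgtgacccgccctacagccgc
Cep55, chr19:38054891-38055060, plus: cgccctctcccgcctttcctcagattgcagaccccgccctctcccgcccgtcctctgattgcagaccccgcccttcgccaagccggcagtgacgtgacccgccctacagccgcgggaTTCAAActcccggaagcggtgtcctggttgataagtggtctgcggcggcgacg
Plk4, chr3:40799801-40799970, plus: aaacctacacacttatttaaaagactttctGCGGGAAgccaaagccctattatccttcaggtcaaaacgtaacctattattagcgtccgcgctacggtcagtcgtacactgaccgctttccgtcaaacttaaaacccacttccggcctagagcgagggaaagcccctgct
Stil, chr4:114999968-115000137, plus: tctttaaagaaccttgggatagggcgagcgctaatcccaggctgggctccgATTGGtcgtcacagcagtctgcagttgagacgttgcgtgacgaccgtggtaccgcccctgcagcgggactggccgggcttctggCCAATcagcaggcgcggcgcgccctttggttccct
Tacc3, chr5:33657978-33658147, plus: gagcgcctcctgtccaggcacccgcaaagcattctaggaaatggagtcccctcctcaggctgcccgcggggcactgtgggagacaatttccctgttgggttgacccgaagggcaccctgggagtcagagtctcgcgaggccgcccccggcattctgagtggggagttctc

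The printed Aspm window held 3 CCAAT boxes and a CHR, that of Stil 2 CCAAT boxes, that of Plk4 an E2F-type match and the later window of Cep55 a CHR, while that of Tacc3 held none of these letters. Over whole windows of 300 bases, an E2F-type match was present in 14 of the 40 genes (35%), against 7.79% of 27025 genes with a window. It was present in 9 of the 25 genes with a window that fell in WT and in 5 of the 11 that were not called. A CHR was present in 35% of the 40 genes and 21.7% of all genes with a window, and a CCAAT box in 50% and 41.1%. The motif letters were chosen after the sequences were seen, and the genes with earlier results known. These shares are therefore a description only. A match is a run of letters and no evidence of binding.

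Centriole duplication was the largest role group, with 18 genes. In WT 13 of them fell, with a median log2 change of -0.89, and in p27KO 12 fell and 1 rose, with a median of -0.66. Of all genes tested 31.2% fell in WT, and 27.3% fell and 24.3% rose in p27KO. After Plk4 and Stil came Sass6, the protein of the cartwheel on which a new centriole forms, which shares exon sequence with Trmt13. It had 26.1, 25.2 and 27.3 CPM in WT neurospheres and 11.1, 11.4 and 12.2 CPM at 2 + 1 DIV, and in the libraries labelled p27KO 27.4 and 23.1 CPM, and then 13.9 and 15.7 CPM. Its change was -1.28 ± 0.10 in WT and -0.87 ± 0.13 in p27KO, so that its fall was well under that of its partners Plk4 and Stil.

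Cep152 and Cep192 are the scaffolds that bring Plk4 to the centriole. Cep152 had 18.3, 16.2 and 18.9 CPM in WT neurospheres and 8.86, 9.12 and 8.54 CPM at 2 + 1 DIV, and in the libraries labelled p27KO 17.4 and 18.5 CPM, and then 9.63 and 9.53 CPM. Cep192 had 83.2, 88 and 95.7 CPM in WT neurospheres and 46.9, 46.9 and 47.2 CPM at 2 + 1 DIV, and in the libraries labelled p27KO 90.6 and 92.6 CPM, and then 61.3 and 58.6 CPM. Both fell in both genotypes, Cep152 by 1.11 and 1.01 on the log2 scale and Cep192 by 1.02 and 0.71. At 2 + 1 DIV the genotypes did not overlap for either gene, and lay closer together for Cep152 than for Cep192.

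Cenpj, which sets the length of the centriole wall, had 23.2, 22.3 and 27.8 CPM in WT neurospheres and 12.7, 14 and 15.3 CPM at 2 + 1 DIV, and in the libraries labelled p27KO 26.9 and 22.9 CPM, and then 16.3 and 18.6 CPM. Cep135, a protein of the cartwheel and the wall, had 29.6, 30.7 and 33.2 CPM in WT neurospheres and 16.2, 19.4 and 18.8 CPM at 2 + 1 DIV, and in the libraries labelled p27KO 36.4 and 37.3 CPM, and then 23 and 20.6 CPM. Both fell in both genotypes (Cenpj -0.91 ± 0.13 and -0.62 ± 0.15, Cep135 -0.88 ± 0.11 and -0.86 ± 0.13), although the p27KO call of Cenpj was lost without p27KO library 1 of 2 + 1 DIV (adjusted p = 0.061, edgeR's quasi-likelihood test). Cntrob, a protein of daughter centrioles, had 29.3, 25.1 and 24.8 CPM in WT neurospheres and 14.7, 13.9 and 13.5 CPM at 2 + 1 DIV, and in the libraries labelled p27KO 24.5 and 27.5 CPM, and then 15.9 and 13.9 CPM. It fell by 1.02 and 0.91 on the log2 scale, with no overlap between stages.

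Not all genes of the duplication group fell. Cep63, a partner of Cep152 at the centriole, had 26.4, 30.6 and 29.8 CPM in WT neurospheres and 29.7, 36.8 and 33.8 CPM at 2 + 1 DIV, and in the libraries labelled p27KO 29.6 and 26.5 CPM, and then 40.1 and 35.8 CPM. Its log2 changes of 0.11 ± 0.11 and 0.34 ± 0.14 did not pass the test (adjusted p = 0.428 and 0.0642, edgeR's quasi-likelihood test), and its exons overlap those of Anapc13. The p27KO value passed with DESeq2 (0.0416) and under the study's filter (0.0242). Cep70 was the member called in p27KO and not in WT, at 0.55 ± 0.17 and 0.31 ± 0.14, and lost its call without p27KO neurosphere library 2 or p27KO library 1 of 2 + 1 DIV (adjusted p = 0.122 and 0.135). Under the study's filter its WT change passed as well (0.40, adjusted p = 0.0214). Cep120, Cep97 and Cep44 passed in neither genotype, although Cep97 and Cep44 passed in both under the study's filter.

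The 2 large proteins of the pericentriolar matrix fell in both genotypes. Pcnt, its main scaffold, changed by -0.93 ± 0.15 in WT and -0.81 ± 0.18 in p27KO, and Cdk5rap2, which binds and activates the gamma-tubulin ring complex, by -0.91 ± 0.12 and -0.66 ± 0.14. Cdk5rap2 went from 349 to 388 CPM in WT neurospheres to 177 to 225 CPM at 2 + 1 DIV, and from 354 to 377 CPM to 227 to 270 CPM in the libraries labelled p27KO. Both genes share annotated exon sequence with another gene.

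Of the 12 genes of the appendage and linker group, 7 fell and 2 rose in WT, and 4 and 2 in p27KO. Among all genes tested 31.2% fell and 30.8% rose in WT, and 27.3% and 24.3% in p27KO. Nin, a microtubule anchor of the subdistal appendages, fell in both genotypes, by 1.24 and 1.06 on the log2 scale. Cep128, another subdistal protein, fell by 1.42 and 0.89, and Cep164, a distal appendage protein that is needed to start a cilium, by 0.66 and 0.63. Cep250, the linker that holds the pair of centrioles together, fell by 0.30 ± 0.11 in WT (adjusted p = 0.0355, edgeR's quasi-likelihood test). That call was lost without WT neurosphere library 2 or 3 or WT library 1 or 3 of 2 + 1 DIV, where the adjusted p was 0.165, 0.0828, 0.127 and 0.0706, and under the study's filter (0.13). Ninl, a paralogue of Nin, and Cntln, a partner of the linker, passed in neither genotype (Ninl 0.18 ± 0.11 and 0.30 ± 0.14, Cntln -0.28 ± 0.18 and -0.04 ± 0.21), although Ninl in p27KO passed under the study's filter (0.38, adjusted p = 0.0354). The genes that rose were Cep350, by 0.52 ± 0.12 and 0.54 ± 0.14, the latter not called without p27KO neurosphere library 1 (adjusted p = 0.0695, edgeR's quasi-likelihood test), and Cep19, a protein of the mother centriole that acts in cilium assembly, by 0.48 ± 0.09 and 0.49 ± 0.11.

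In the group of satellite and cilium genes, which act around the centriole and at the base of the cilium, as many of the 8 rose as fell in WT (3 each). In p27KO 2 rose and 1 fell. The shares of all genes tested that rose and fell were 30.8% and 31.2% in WT, and 24.3% and 27.3% in p27KO. Pcm1, the scaffold of the centriolar satellites, rose from 197 to 225 CPM in WT neurospheres to 264 to 294 CPM at 2 + 1 DIV, by 0.32 ± 0.10 on the log2 scale. In the libraries labelled p27KO it rose from 207 and 256 CPM to 319 and 351 CPM, by 0.43 ± 0.12, a call lost without p27KO neurosphere library 2 or p27KO library 2 of 2 + 1 DIV (adjusted p = 0.0844 and 0.0852, edgeR's quasi-likelihood test). Cep162, which acts at the transition zone of the cilium, rose by 0.53 ± 0.09 and 0.60 ± 0.11. Cep290, another transition zone protein, changed by 0.45 ± 0.16 in WT (adjusted p = 0.0364) and by 0.50 ± 0.20 in p27KO (adjusted p = 0.0583, but 0.0368 with DESeq2 and 0.0311 under the study's filter). Its WT call was lost without WT neurosphere library 1 or 2 (adjusted p = 0.0747 and 0.0912), WT library 2 or 3 of 2 + 1 DIV (0.158 and 0.0676), or p27KO library 1 or 2 of 2 + 1 DIV (0.0522 and 0.0519). It was lost as well with the replicate number as a block (0.0573) and in a fit of the WT libraries alone (0.0602). Its exons overlap those of another annotated gene. Cep41, which acts in the modification of tubulin in the cilium, and Cep72, a satellite protein, fell in WT by 1.27 and 0.83, with changes of -0.79 ± 0.14 and -0.26 ± 0.16 in p27KO, where the latter did not pass.

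The TACC genes, which code for coiled-coil proteins of the spindle and the centrosome, differed from one another in direction. Tacc1 had 70.9, 75.2 and 65.2 CPM in WT neurospheres and 196, 158 and 141 CPM at 2 + 1 DIV, and in the libraries labelled p27KO 72.1 and 79.4 CPM, and then 168 and 220 CPM. Tacc2 had 240, 282 and 235 CPM in WT neurospheres and 83.4, 73.7 and 74.5 CPM at 2 + 1 DIV, and in the libraries labelled p27KO 233 and 247 CPM, and then 72.8 and 87.2 CPM. Tacc1 thus rose in both genotypes (1.12 ± 0.14 and 1.25 ± 0.17), and Tacc2 and Tacc3 fell, with Tacc2 at -1.81 ± 0.10 in WT and -1.69 ± 0.13 in p27KO. For Tacc1 and Tacc2 the 2 genotypes overlapped at both stages. The difference between the genotypes in the stage change had a 95% interval of -0.35 to 0.61 for Tacc1 and -0.22 to 0.48 for Tacc2, and of 0.36 to 1.92 for Tacc3. Ckap5, the microtubule polymerase that Tacc3 binds, had 388, 376 and 406 CPM in WT neurospheres and 487, 450 and 446 CPM at 2 + 1 DIV, and in the libraries labelled p27KO 403 and 360 CPM, and then 504 and 471 CPM. Its stages did not overlap in either genotype, but its changes of 0.14 ± 0.08 and 0.25 ± 0.10 did not pass the test (adjusted p = 0.157 and 0.0507, edgeR's quasi-likelihood test), while both passed under the study's filter (0.23 and 0.33, adjusted p = 0.0222 and 0.0129). That in p27KO also passed with DESeq2 (0.00578), with its size factors (0.0304), and without WT library 1 of 2 + 1 DIV (0.0413) or p27KO neurosphere library 1 (0.0381).

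**Figure D3:**
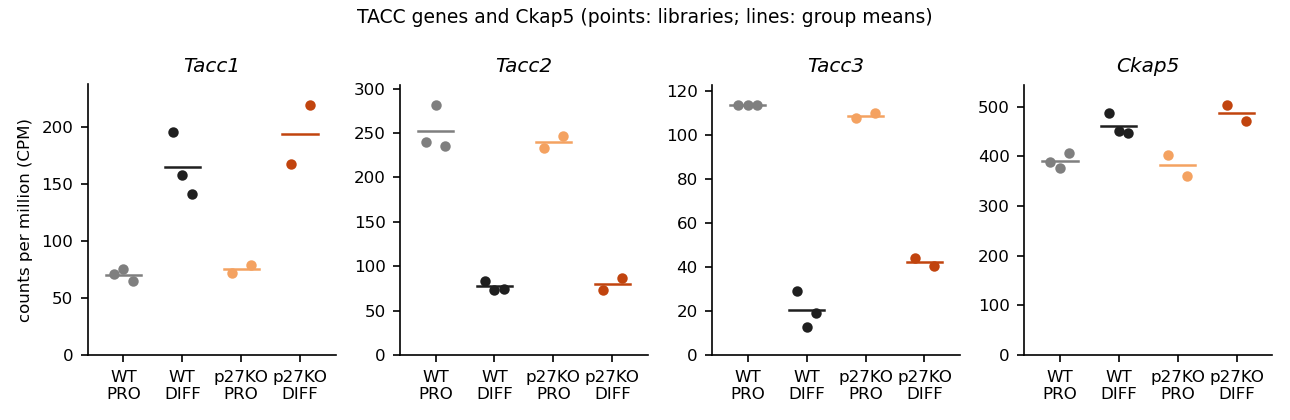
CPM (y axis, from 0) of Tacc1, Tacc2, Tacc3 and Ckap5, with a point per library and a line at the group mean. Tacc1 is higher at 2 + 1 DIV and Tacc2 lower, with the genotypes overlapping at each stage, whereas Tacc3 is lower at 2 + 1 DIV and its p27KO libraries there lie above the WT libraries.

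The order of levels among the 49 genes changed with the stage. Levels were compared between genes per length, as TPM, computed from the counts and the summed exon length of each gene. In WT neurospheres the highest were Tpx2 at 163 ± 4.34 TPM (SD, n = 3), Ckap5 at 128 ± 5.69, Tacc3 at 100 ± 2.27, Pcm1 at 87.6 ± 6.29 and Cdk5rap2 at 87.4 ± 6.23, the last 2 of which did not differ beyond their spread. In WT cells at 2 + 1 DIV they were Ckap5 at 157 ± 11 TPM, Pcm1 at 122 ± 4.87, Cep19 at 57 ± 1.23 and Cdk5rap2 at 51.8 ± 5.87, and Tpx2 was the 10th at 24.8 ± 9.9. In the libraries labelled p27KO, Tpx2 also led in neurospheres at 160 ± 7.67 TPM (n = 2), and at 2 + 1 DIV it was behind only Ckap5 at 168 ± 5.38 and Pcm1 at 147 ± 12.5, at 72.9 ± 3.98 TPM. Stil, Plk4 and Cep55 were 12th, 15th and 14th in WT neurospheres, and 45th, 44th and 43rd of the 49 in WT cells at 2 + 1 DIV.

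Whether the stage change differed between the genotypes was tested with the interaction, the log2 change in p27KO minus that in WT. It was positive for 47 of the 49 genes, which means a smaller fall or a larger rise in the libraries labelled p27KO, with a median of 0.15, against 0.00 over all genes tested, 50% of which were above 0. Cep55 was the 1 member that passed, at 1.88 ± 0.23 (adjusted p = 0.0234, edgeR's quasi-likelihood test), where 0.28% of all genes tested had a positive call. The next were Aspm at 1.81 ± 0.37 (adjusted p = 0.149), Tpx2 at 1.57 ± 0.35 (0.208), Stil at 1.37 ± 0.25 (0.0822), Tacc3 at 1.14 ± 0.35 (0.635) and Plk4 at 1.02 ± 0.24 (0.214). These 5 did not pass, although their 95% intervals lay above 0, and 13 of the 49 had an unadjusted p under 0.05, against 3.88% of all genes tested. At the other end were Cep95 at -0.08 ± 0.22 and Cep131 at -0.02 ± 0.16, the 2 with a negative value. Among the partners of Plk4 and Stil the values were lower, with Sass6 at 0.41 ± 0.16, Cep192 at 0.31 ± 0.12 and Cep152 at 0.10 ± 0.17, the last with a 95% interval of -0.27 to 0.48. Of the 5 cycling markers, Mki67 passed as well, at 1.67 ± 0.27 (adjusted p = 0.0382, edgeR's quasi-likelihood test). The others did not, with Top2a at 1.72 ± 0.33, Ccnb1 at 1.48 ± 0.40, Cdk1 at 1.40 ± 0.28 and Pcna at 0.47 ± 0.20. Their part in the values of the 49 genes was not tested.

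The count of members that passed the interaction was 1 in the fit used and varied with the setting. It was 5 with DESeq2 (Cep55, Aspm, Plk4, Stil and Tpx2), where 163 of all genes tested were positive and called against 47 in the fit used. It was 2 (Cep55 and Plk4) with the replicate number as a block, either shared by the genotypes or within each genotype, where 49 and 38 of all genes tested were. The call of Cep55 held without any of the 3 WT libraries of 2 + 1 DIV and was lost without any other library: the adjusted p was 0.0603, 0.0779 and 0.0763 without WT neurosphere library 1, 2 or 3, 0.113 and 0.117 without p27KO neurosphere library 1 or 2, and 0.159 and 0.0701 without p27KO library 1 or 2 of 2 + 1 DIV, at log2 values of 1.76 to 2.00. In each of those 7 fits no gene of the whole table passed the interaction, where 518 to 1218 of the 16797 had an unadjusted p under 0.05. Without WT library 1 of 2 + 1 DIV, Stil, Tacc3 and Tpx2 passed as well, at 1.63, 1.47 and 1.84, and without library 2, Aspm and Tpx2 did, at 1.54 and 1.31. The number of all genes tested with a positive call rose too, from 47 in the fit used to 86 and 81. The 6 genes that fell in WT and were not called in p27KO did not pass the interaction either, with Cep72 at 0.57 ± 0.20 (adjusted p = 0.924) and Cep295 at 0.40 ± 0.12 (adjusted p = 0.599).

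At 2 + 1 DIV, 5 of the 49 genes were higher in the libraries labelled p27KO than in WT, where 1.37% of all genes tested were called higher. They were Aspm (2.03 ± 0.26 on the log2 scale, adjusted p = 0.00493, edgeR's quasi-likelihood test), Cep55 (1.94 ± 0.17, adjusted p = 0.00042), Tpx2 (1.58 ± 0.24, adjusted p = 0.0114), Stil (1.45 ± 0.18, adjusted p = 0.00298) and Plk4 (1.04 ± 0.17, adjusted p = 0.0126). These are 4.1-, 3.84-, 2.99-, 2.74- and 2.05-fold differences, with no overlap between the genotypes for any of the 5. Tacc3 differed by 1.09 ± 0.25 (adjusted p = 0.079), Cep192 by 0.37 ± 0.08 (0.0714) and Cep295, which shares exon sequence with Taf1d, by 0.37 ± 0.09 (0.0799). DESeq2 called these 3 and Cep89 as well, 9 in all, whereas a fit of the 5 libraries of 2 + 1 DIV alone called Cep55 only. Over all genes tested the number called higher moved too, from 230 to 542 with DESeq2 and to 46 in that fit. Without p27KO library 1 of 2 + 1 DIV, Aspm, Plk4 and Tpx2 lost their calls (adjusted p = 0.0507, 0.153 and 0.104), and without library 2, Plk4 and Tpx2 did (0.058 and 0.0618). That of Tpx2 was also lost without a filter on low counts (0.0633).

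Smaller differences of the same direction ran through much of the set at 2 + 1 DIV. Both libraries labelled p27KO lay above all 3 WT libraries in CPM for 27 of the 49 genes, against 15.2% of all genes tested, and below all 3 for none, against 18.9%. The median log2 difference was 0.27 over the 49 genes and -0.02 over all genes tested, and it was 1.09 in the 7 spindle pole and cytokinesis genes, 0.32 in the appendage and linker group and 0.22 in the duplication group. The lowest values were those of Cep120, a daughter centriole protein (-0.06 ± 0.10), Ninl (-0.04 ± 0.12) and Cep19 (-0.03 ± 0.10). Of the 5 cycling markers, Mki67, Top2a, Cdk1 and Ccnb1 were also higher in p27KO at 2 + 1 DIV (1.82, 1.85, 1.43 and 1.48), while Pcna, at 0.61 ± 0.14, did not pass (adjusted p = 0.0714, edgeR's quasi-likelihood test). Their part was not tested.

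**Figure D4:**
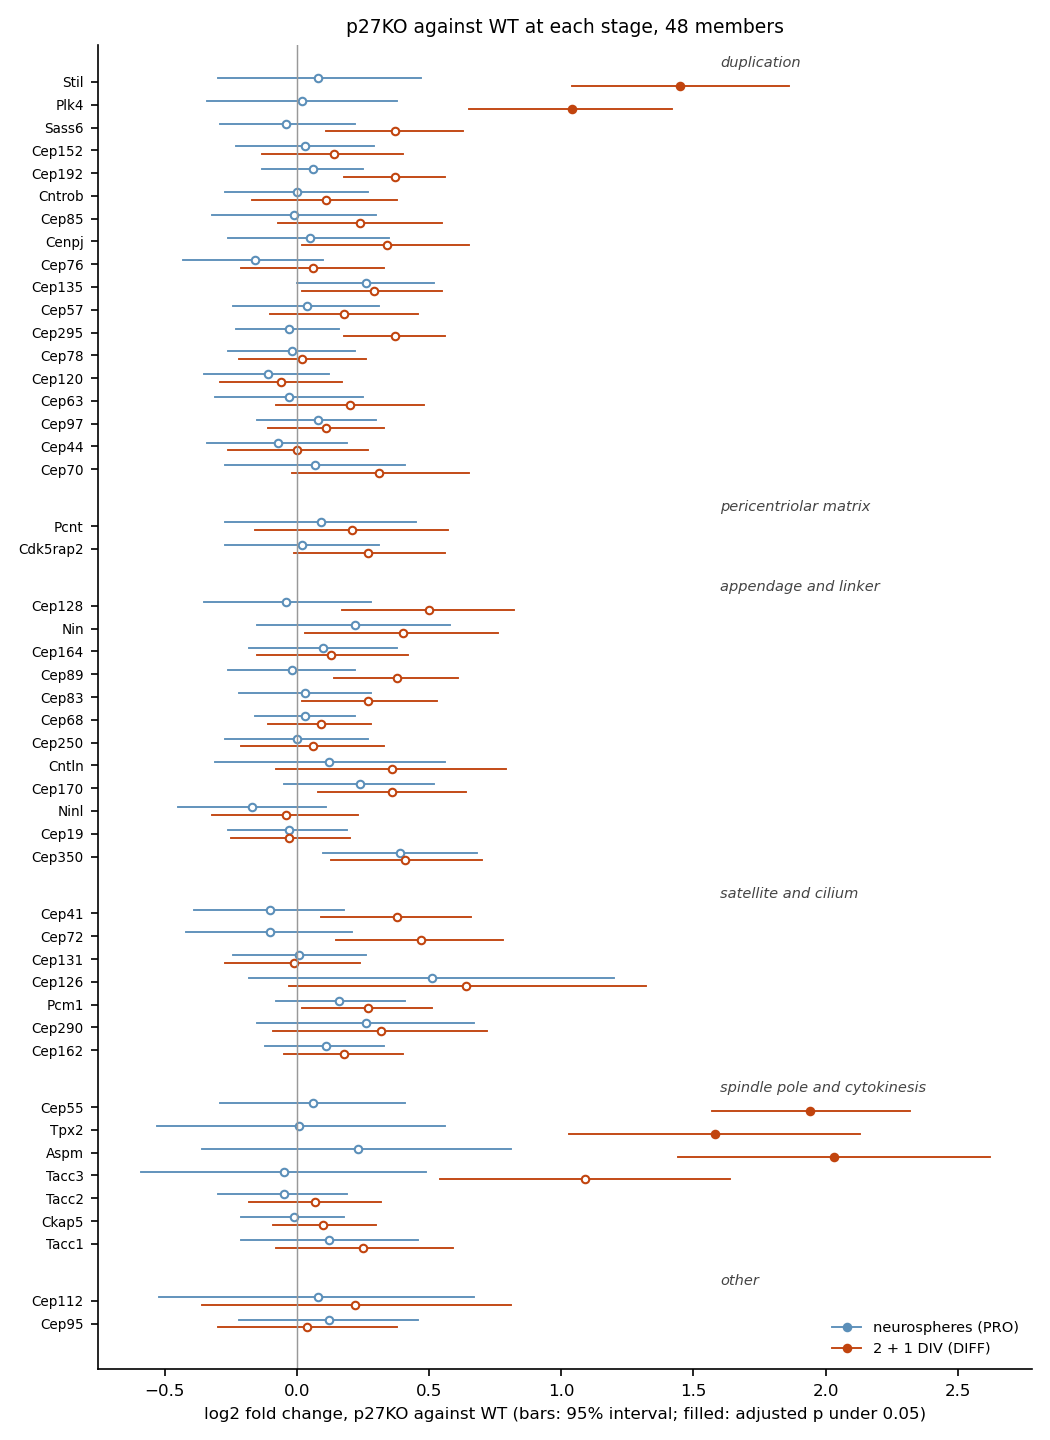
Log2 fold change of p27KO against WT (x axis) for 48 of the 49 genes by role group, in neurospheres (blue) and at 2 + 1 DIV (orange), with 95% intervals as bars and filled points where the adjusted p was under 0.05. Points of neurospheres lie between -0.17 and 0.51, and Aspm, Cep55, Tpx2, Stil and Plk4 are filled at 2 + 1 DIV.

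In neurospheres none of the 49 genes passed the test between the genotypes. None was called by edgeR's quasi-likelihood test, where 0.0536% of all genes tested were called in either direction, or by DESeq2. An unadjusted p under 0.05 was found for 1 (Cep350), or 2.04% of the 49, against 4.55% of all genes tested. The largest positive values were those of Cep126 (0.51 ± 0.31), a low gene at 2.12 to 4.46 CPM in neurospheres, Cep350 (0.39 ± 0.13) and Cep290 (0.26 ± 0.18), while Ninl (-0.17 ± 0.13) and Cep76 (-0.16 ± 0.12) were among the lowest. The median was 0.03 over the 49 genes and -0.01 over all genes tested. Both libraries labelled p27KO lay above all 3 WT libraries in CPM for 6 of the 49 genes and below all 3 for 5. Of the 16797 genes tested, 1283 and 1735 did so.

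Other genes of the same machinery were read from a list of 52 genes in 4 groups. In WT 31 of them fell and 5 rose, where 31.2% of all genes tested fell and 30.8% rose, and in p27KO 30 fell and 6 rose, where the shares were 27.3% and 24.3%. Among 8 kinases of the centrosome, 5 fell in each genotype and 2, Nek9 and Ttbk2, rose (Nek9 by 0.46 and 0.50, Ttbk2 by 0.59 and 0.65). Plk1, which starts centrosome maturation, changed by -3.63 ± 0.24 in WT and -2.12 ± 0.27 in p27KO, Aurka, the kinase that Tpx2 activates, by -3.42 ± 0.21 and -2.08 ± 0.24, and Nek2, which opens the linker between the centrosomes, by -3.45 ± 0.28 and -1.66 ± 0.32. All 3 were higher in p27KO at 2 + 1 DIV, by 1.53, 1.30 and 2.02 (adjusted p = 0.0134, 0.0143 and 0.00862, edgeR's quasi-likelihood test). Of the other genes of the list, chosen after their values were seen, Hmmr and Tedc1 were also higher there (1.84 and 1.07) and Sfi1 was lower (-0.54), and Hmmr passed the interaction at 1.77 ± 0.24 (adjusted p = 0.0236).

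Of 11 genes of the gamma-tubulin ring complex and its anchors, which serve microtubule nucleation at the centrosome, 5 fell and 1 rose in each genotype. Their median log2 change was -0.29 in WT and -0.55 in p27KO, against 0.03 and -0.01 over all genes tested. Of the latter 31.2% fell and 30.8% rose in WT, and 27.3% and 24.3% in p27KO. The gene that rose was Akap9, by 0.92 ± 0.10 in WT and 0.89 ± 0.13 in p27KO. Among those that fell, Tubg1, the gamma-tubulin of the ring complex, changed by -1.69 ± 0.15 in WT and -1.85 ± 0.18 in p27KO, and Nedd1, which brings the ring complex to the centrosome, by -1.20 ± 0.10 and -1.06 ± 0.12. Of the 8 augmin subunits, which seed microtubules within the spindle, 7 fell in each genotype, with Haus1 at -0.94 ± 0.14 and -0.83 ± 0.16. Ccp110, which caps the centriole and holds back cilium growth, changed by -0.33 ± 0.10 in WT and, without passing, -0.31 ± 0.13 in p27KO, and Odf2, an appendage protein, passed in neither genotype (-0.07 ± 0.08 and 0.12 ± 0.10). Neither Tubg1, Nedd1 nor Haus1 passed the interaction, at -0.16 ± 0.23, 0.14 ± 0.15 and 0.11 ± 0.21.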

How the data were processed

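RNA-seq counts of 10 libraries (WT and p27KO, 3 and 2 per stage) were used. According to the paper's methods, the authors used STAR to align reads to the mouse transcriptome of Ensembl, and deposited RSEM's estimated counts per gene as whole numbers that are not normalized; versions and strand setting are not given in the sources used here. Symbols and positions came from GENCODE M21 (GRCm38), with 48349 of 48795 genes matched; 30 of the 49 genes overlap another annotated gene and 17 share exon sequence with another, so that their counts may include reads of both.

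Counts were fitted with edgeR 4.0.16 (TMM, robust quasi-likelihood, all libraries as 4 groups, 16797 genes with at least 10 counts in at least 2 libraries), with 5 comparisons, two-sided tests and Benjamini-Hochberg adjustment over all genes tested at 0.05. CPM and TPM use library totals and no TMM factors. Intervals are 95%. At these depths the spread between replicates sets the precision of all but the lowest genes. The steps were also run on a set of simulated counts, drawn independently for each library and without pairing. The outcome of that run is not given here.

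Genes named in the text were set by role, by the 3 largest and 3 lowest fitted values of each comparison and by a genotype or interaction call; members and lists were chosen with earlier results of these data known, and the motif letters after the sequences were seen. One member counted among the 49 and a stem cell marker are not reported here. Alternatives were DESeq2 1.42.0, its size factors in edgeR, the study's filter (less than 1 CPM in at least 4 libraries discarded), no filter, only the groups compared, the replicate number as a block, and each library left out. Same-numbered WT libraries of both stages deviated together from their group means (correlations 0.201, 0.281 and 0.3, and -0.185 to -0.0757 for different numbers). Deviations cancel out within a group, so that these values depend on one another. The WT numbers may mark pairs, although no source says what a number marks. The main fit ignores such pairs, and the block was fitted as an alternative only. With 2 p27KO libraries per stage the correlations can differ in sign only and share the same size. They were -0.171 for the same numbers and 0.171 for crossed ones. Replicates differed by far more than sampling noise (chi-square per gene 13.1 to 58). Role groups held 18 duplication, 2 matrix, 12 appendage and linker, 8 satellite and cilium, 7 spindle pole and cytokinesis and 2 other genes. Further marker sums were 856 to 1050 and 2580 to 3480 CPM for 5 astrocytic genes in WT neurospheres and at 2 + 1 DIV, 782 to 877 and 2930 to 3070 CPM in p27KO, 1220 to 2130 CPM for 5 neuronal, 76 to 174 CPM for 5 oligodendroglial and 5.3 to 49.8 CPM for 5 endothelial genes over all libraries.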

Additional observations from a re-analysis of the deposited data

Results flagged for a closer look

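The stage change of Cep55 differed between the genotypes by the test of that difference: the log2 change in the libraries labelled p27KO minus that in WT was 1.88 (edgeR's quasi-likelihood test, adjusted p = 0.0234). The gene fell 9.16-fold in WT and 2.49-fold in p27KO. Both p27KO libraries at 2 + 1 DIV, at 12.9 and 11.1 CPM, lay above the 3 WT libraries, at 3.66, 2.32 and 3.56 CPM, while the neurospheres lay between 26.8 and 28.5 CPM in either genotype. The value ranged from 1.71 to 2.00 over 17 alternatives, 10 of which kept the call, at adjusted p of 3.1e-11 to 0.159.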

How the results depend on the processing

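With 2 or 3 libraries per group, the WT falls of the 6 genes with the largest changes kept direction and call under every alternative run, whereas calls near the threshold did not. Genes with a rise numbered 11 in WT and 12 in p27KO under the study's filter, and 10 in p27KO with DESeq2's size factors. Over all genes fitted these numbers were 4307, 3541 and 4261. The interaction was positive and called for 5 genes with DESeq2, 3 without a filter, and 2 under a replicate block, under a block within genotype or under a block with the p27KO numbers crossed, an alternative chosen after seeing the data. In the same order it was so for 163, 78, 49, 38 and 67 of all genes fitted. At 2 + 1 DIV, 9 genes were higher in p27KO with DESeq2, 7 with the block, and 1 in a fit of those libraries alone, where 542, 316 and 46 of all genes tested were. The causes were not tested.

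Leaving out 1 library, 5 to 9 genes rose and 29 to 30 fell in WT, 4 to 10 rose and 20 to 24 fell in p27KO, 0 to 4 had a positive interaction, and 2 to 6 were higher in p27KO at 2 + 1 DIV. Over all genes tested, with 1 WT library left out, 4660 to 4988 rose and 4727 to 5008 fell in WT. A positive interaction was then called for 0 to 86, against 47 in the fit used. The number called higher in p27KO at 2 + 1 DIV was then 196 to 228, against 230. It was lower still without a p27KO library of that stage. Where 1 library of a group remained, it was assumed to vary like the others. Among the single values given in the text, those that changed sign were close to 0 and not called: the p27KO change of Cntln (0.037 under the study's filter, -0.18 to 0.11 with a library left out), the interaction of Cep131 (-0.13 to 0.075), Cep95 (-0.25 to 0.011), Tacc1 (-0.07 to 0.31) and Tacc2 (-0.0016 to 0.24), and the difference at 2 + 1 DIV of Cep120 (-0.15 to 0.013) and Cep19 (-0.062 to 0.022). Of 1663 such values under alternatives, 1568 kept direction and side of the threshold, 41 lost a call and 45 gained it. No called value of the 49 genes changed sign in any comparison.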
